A study of Mus musculus with 2 samples.

Results

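Lhx6, Dlx1, Dlx2, Dlx5, Dlx6, Sox6, Maf and Sp8 encode transcription factors of forebrain GABAergic interneurons, and Reln encodes reelin, a secreted protein made by some of these neurons. These 9 genes of 43346 measured genes were chosen by symbol, and their rows were read by gene identifier in the gene and transcript tables of both libraries. The data are poly(A) RNA-seq of brain tissue from 1 mouse of the inbred strain C57BL/6J, an adult male of 10 weeks. Replicate 2 and replicate 1 are labelled technical replicates of biological replicate 1, there was no treatment, and the RNA came from a kit for lipid-rich tissue. Replicate 2 was made later, and per the labels the publication they name did not include it. The comparison available is therefore between libraries of 1 animal, so it holds no difference between animals or conditions and has no replicate check.

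Interneurons of the cortex and striatum are born in the ganglionic eminences of the embryonic ventral forebrain and migrate to their final places. Dlx homeodomain factors act in most of these precursors. Lhx6, Sox6 and Maf act in the lineage of the medial eminence, which gives the somatostatin and parvalbumin interneurons, and Sp8 acts in lineages of the caudal and lateral eminences, including olfactory bulb interneurons. Reelin steers migrating neurons through the receptors Vldlr and Lrp8 and the adaptor Dab1. In the adult it is made by interneurons, and in the cerebellum by granule cells.

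Dlx1, Dlx2, Dlx5, Dlx6 and Lhx6 share the homeobox, the coding stretch of 180 bases for the DNA-binding homeodomain. It is shown because the estimated transcripts of Dlx1 and Dlx5 differed in whether they hold it whole. The sequences are from GENCODE M21 on GRCm38, on the strand of the gene, joined across an intron, with codons 48 to 51 of the homeobox, in its recognition helix, in capitals.
Dlx1 (Dlx1-201, chr2:71531025-71532311, plus strand): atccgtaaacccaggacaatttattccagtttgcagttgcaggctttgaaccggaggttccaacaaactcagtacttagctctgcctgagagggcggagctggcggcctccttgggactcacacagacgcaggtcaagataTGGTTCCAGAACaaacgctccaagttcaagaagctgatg
Dlx2 (Dlx2-201, chr2:71544877-71545515, minus strand): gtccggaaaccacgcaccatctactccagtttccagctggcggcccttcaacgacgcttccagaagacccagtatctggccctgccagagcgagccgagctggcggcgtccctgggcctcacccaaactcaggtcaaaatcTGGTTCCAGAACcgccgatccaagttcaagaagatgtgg
Dlx5 (Dlx5-201, chr6:6878441-6879657, minus strand): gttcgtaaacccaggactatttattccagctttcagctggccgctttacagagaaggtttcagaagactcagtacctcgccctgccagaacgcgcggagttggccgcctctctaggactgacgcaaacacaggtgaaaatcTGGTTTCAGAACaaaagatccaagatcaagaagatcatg
Dlx6 (Dlx6-202, chr6:6865140-6867088, plus strand): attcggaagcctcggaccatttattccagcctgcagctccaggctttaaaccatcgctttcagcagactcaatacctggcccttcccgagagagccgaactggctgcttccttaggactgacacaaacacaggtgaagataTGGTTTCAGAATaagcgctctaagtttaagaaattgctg
Lhx6 (Lhx6-204, chr2:36091095-36091647, minus strand): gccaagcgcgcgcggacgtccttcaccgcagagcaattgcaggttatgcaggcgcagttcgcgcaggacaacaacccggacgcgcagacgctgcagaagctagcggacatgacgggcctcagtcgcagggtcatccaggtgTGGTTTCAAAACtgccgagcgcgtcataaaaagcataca
Between the Dlx genes 71.1% to 76.7% of the 180 homeobox bases were identical, while Lhx6 shared 72 to 83 of them with a Dlx gene. The longest run of identical bases between the mRNAs of any pair of Dlx genes was 12 to 23 bases. Between Lhx6 and Dlx1, Dlx2 or Dlx5 it was 10 to 15 bases, and between Lhx6 and Dlx6 it was 37 bases, nearly all of them alternating A and C.

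The libraries held 17828479 counts in replicate 2 and 18302506 in replicate 1. TPM is a level per transcript length, scaled so that all libraries have an equal sum. Over the 14229 genes whose mean TPM reached 1, the median TPM was 17.0 in replicate 2 and 5.76 in replicate 1. The median of their log2 (TPM + 1) ratios, replicate 2 over replicate 1, was 0.88, and it went with GC content, the share of G and C bases in a gene's transcripts. It was -0.31 for genes of 40% to 45% GC, 0.41 at 45% to 50%, 1.6 at 50% to 55% and 3.03 at 55% to 60%. Each of the 9 genes is therefore given beside the median of its GC class.

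Interneuron markers were present in both libraries, all 7 above 0. Their summed TPM was 1391 in replicate 2 and 490.9 in replicate 1. Sst, the somatostatin precursor, stood at 567.9 TPM in replicate 2 and 97.6 in replicate 1, and Gad1, a GABA-synthesising enzyme, at 258.7 TPM in replicate 2 and 178.5 in replicate 1. Coding transcripts alone gave Gad1 178.2 TPM in replicate 2 and 2.05 in replicate 1, a comparison chosen after the values were seen. Gad2, the other GABA-synthesising enzyme, stood at 68.8 TPM in replicate 2 and 81.5 in replicate 1, and Vip, a neuropeptide precursor, at 47.4 TPM in replicate 2 and 56.7 in replicate 1. By the calling rule given below, 4 of the 7 markers (Slc32a1, Sst, Pvalb and Npy) were called higher, against 34.5% of all tested genes. Gad2 and Vip, 2 of the 7, were called lower, against 24.0%. They lie in the GC class of 40% to 45%, where 74.6% of genes were called lower. Of those called higher, Sst lies in a class with 90.8% called higher, and Pvalb in a class with 3.35%. Markers of other cells that use some of the 9 genes were measured as well. The 5 markers of oligodendrocyte precursors, which also express Sox6, summed to 132.7 TPM in replicate 2 and 28.8 in replicate 1. The 5 markers of microglia, which also express Maf, summed to 229.7 TPM in replicate 2 and 179.9 in replicate 1. The 5 markers of striatal projection neurons, which descend from Dlx precursors, summed to 748.9 TPM in replicate 2 and 73.7 in replicate 1. The part of these other cells in the levels of the 9 genes was not tested. The median GC content was 49.4% for the interneuron markers, 59.2% for those of oligodendrocyte precursors, 49.8% for microglia and 55.0% for striatal projection neurons. Both libraries came from the same mouse, so these sums are no measure of a change in cell number or in RNA per cell. They stand beside the library difference that went with GC content, and its part in them was not tested.

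All 9 genes were detected in both libraries at low to moderate levels. Reln was the highest in mean TPM and Sp8 the lowest, and the sum over the 9 genes was 69.1 TPM in replicate 2 and 54.9 in replicate 1. In descending order of mean TPM the genes were Reln, Maf, Dlx6, Dlx1, Lhx6, Sox6, Dlx5, Dlx2 and Sp8. Of the steps between neighbours in this order, only that from Reln to Maf lay outside the spread of the libraries. From Dlx6 down, each gene's range over the 2 libraries overlapped that of the gene above it. Genes further apart in the order could still be separate, as Maf, at 8.09 to 9.21 TPM, was from Dlx1, at 5.55 to 6.46 TPM. Within a library, Dlx6 took position 2 in replicate 2 and position 4 in replicate 1, and Lhx6 position 4 in replicate 2 and position 6 in replicate 1.

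**Figure D1:**
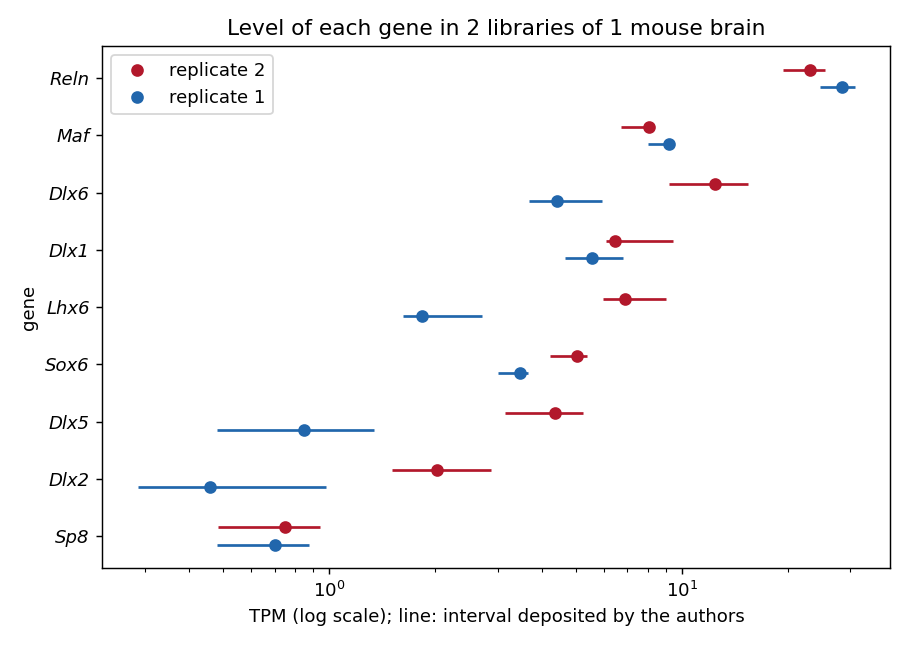
TPM of each gene (log scale) in replicate 2 (red) and replicate 1 (blue), with the interval the authors deposited as a line; genes run in descending order of mean TPM. The intervals of the libraries do not overlap for Lhx6, Dlx2, Dlx5, Dlx6 and Sox6, 5 of 9 genes, against 55.2% of all tested genes apart in that direction, and Reln stands highest in both libraries, at 23.0 TPM in replicate 2 and 28.4 in replicate 1.

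Dlx2 and Dlx5 were called higher in replicate 2, Maf was called lower, and the other 6 genes were not called. Calls required 2-fold or more and an adjusted p (Benjamini-Hochberg over all genes) under 0.05, in an exact binomial test of rounded expected counts with TMM-scaled library sizes. By that rule 34.5% of the 16320 genes tested were called higher and 24.0% lower, so 2 and 1 of 9 are no larger shares than those of all genes. With library totals in place of TMM, which moves each log2 count ratio up by 0.61, 3 of the 9 genes were higher (Lhx6, Dlx2 and Dlx5) and 0 lower, against 43.6% higher and 7.9% lower among all genes. On TPM, 7 of the 9 log2 ratios were above 0 and 4 were above the median of all genes, and the median over the 9 genes was 0.43. The deposited TPM intervals, whose confidence level the headers do not state, were apart for 5 genes, all higher in replicate 2, and 0 were lower. Among all tested genes 55.2% were apart and higher and 13.2% apart and lower, so 5 of 9 is a share like that of all genes.

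**Figure D2:**
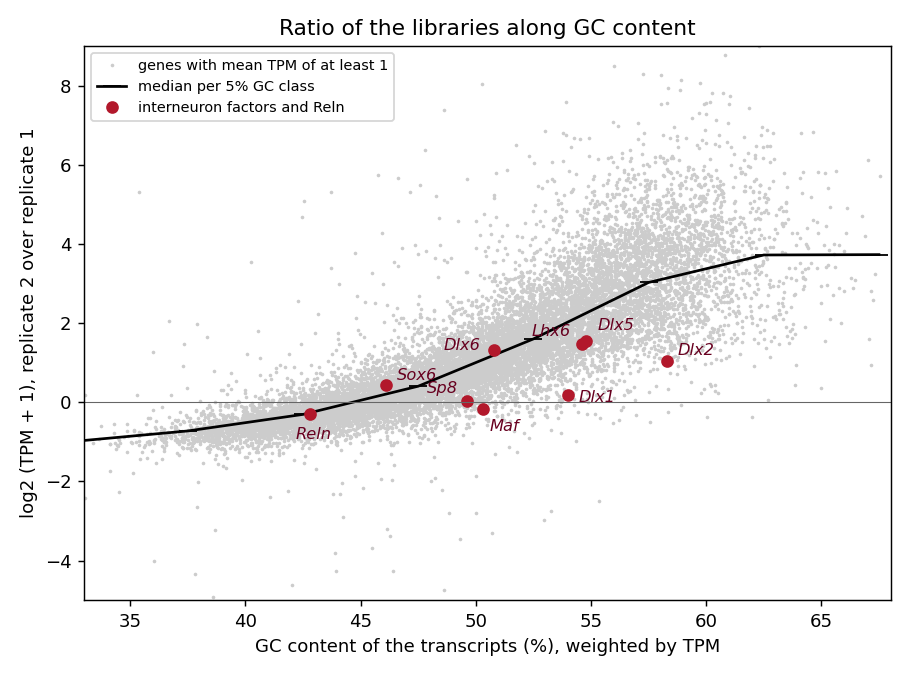
Log2 (TPM + 1) ratio of replicate 2 over replicate 1 against the GC content of a gene's transcripts in percent, for genes whose mean TPM reached 1 (grey), the median per 5% GC class (black line) and the 9 genes (red). Dlx1 at 0.19, Dlx2 at 1.05 and Maf at -0.17 lie below the medians of their classes, 1.6, 3.03 and 1.6.

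Dlx1 and Dlx2 lie tail to tail on chromosome 2 (GRCm38), with 9426 bases between them, and code for homeodomain factors that act early in the GABAergic lineage. Dlx1 (ENSMUSG00000041911.3, chr2:71528113-71533981, plus strand) had 6.46 TPM from 267 counts in replicate 2 and 5.55 TPM from 208 counts in replicate 1 (6.00 ± 0.643 TPM, SD, n = 2). These levels were close, with a TPM ratio of 1.16 (95% counting interval 0.967 to 1.4). Dlx1 was not called (log2 count ratio -0.21, adjusted p = 0.13, exact binomial test). The interval leaves out the error of the estimated transcript shares on which TPM depends, described for Dlx6 below. Coding transcripts alone gave Dlx1 5.49 TPM in replicate 2 and 1.27 in replicate 1. That log2 ratio was 1.52, a comparison chosen after the values were seen. Over all transcripts, the log2 TPM ratio of Dlx1, 0.19, stood beside a median of 1.6 in its GC class, 50% to 55%. Dlx2 (ENSMUSG00000023391.8, chr2:71543408-71546754, minus strand) had 2.02 TPM from 50 counts in replicate 2 and 0.46 TPM from 15 counts in replicate 1 (1.24 ± 1.10 TPM, SD, n = 2). Its TPM ratio was 4.39 (2.43 to 8.42), and its log2 count ratio was 1.13 (adjusted p = 0.00656, exact binomial test). In its GC class, 55% to 60%, 90.8% of genes were called higher by the same rule, and its log2 TPM ratio of 1.05 was below the class median of 3.03. Dlx2 was thus higher in replicate 2, by less than most genes of like GC content.

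Dlx6 and Dlx5, the second pair, lie tail to tail on chromosome 6, 9236 bases apart, and code for homeodomain factors that follow Dlx1 and Dlx2 in the same lineage. Dlx5 (ENSMUSG00000029755.9, chr6:6877805-6882085, minus strand) had 4.37 TPM from 58 counts in replicate 2 and 0.85 TPM from 14 counts in replicate 1 (2.61 ± 2.49 TPM, SD, n = 2). Its TPM ratio of 5.14 (2.83 to 9.98) was the largest of the 9 genes, and its log2 count ratio was 1.44 (adjusted p = 0.000363, exact binomial test). Dlx6 (ENSMUSG00000029754.9, chr6:6863334-6868568, plus strand) had 12.4 TPM in replicate 2 and 4.43 in replicate 1 (8.44 ± 5.66 TPM, SD, n = 2), a ratio of 2.81 (2.17 to 3.64). Its counts were nearly equal, 123 in replicate 2 and 120 in replicate 1, and Dlx6 was not called (log2 count ratio -0.54, adjusted p = 0.0052, exact binomial test). TPM divides counts by an effective length set by the estimated transcript shares, and for Dlx6 this length came to 912.02 bases in replicate 2, against 1885.9 in replicate 1. The error of those shares is outside the counting intervals. The log2 TPM ratios, 1.54 for Dlx5 and 1.31 for Dlx6, were slightly below the 1.6 of their GC class. The pseudocount of 1 lowers the ratio of Dlx5, which was 2.23 with a pseudocount of 0.1. On counts the class median log2 ratio was 1.01, with Dlx5 above it at 1.44 and Dlx6 below it at -0.54. With the smooth GC trend removed, as given below, Dlx5 stood at -0.65 and Dlx6 at -1.0. Together the 4 Dlx genes held 25.3 TPM from 498 counts in replicate 2 and 11.3 TPM from 357 counts in replicate 1.

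Noncoding RNAs run against both Dlx pairs. Dlx1as, whose exons share 335 of the 5396 exon bases of Dlx1, had 15.4 TPM from 74 counts in replicate 2 and 12.1 TPM from 63 counts in replicate 1, and was not called. The sources do not state whether the counting used strand, so reads in the shared bases cannot be told apart. Dlx6os1, which spans Dlx6 on the opposite strand and shares 0 exon bases with it, had 8.96 TPM from 402 counts in replicate 2 and 15.4 TPM from 912 counts in replicate 1. It was called lower (log2 count ratio -1.75, adjusted p = 1.41e-100, exact binomial test), as were 93.2% of genes in its GC class, 35% to 40%. Dlx3 had 1 count in replicate 2 and 0 in replicate 1, and Dlx4 had 6 counts in replicate 2 and 0 in replicate 1, too few to be tested.

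Lhx6, a LIM homeodomain factor that Nkx2-1 switches on in the medial eminence, was called higher in replicate 2 with library totals and not with TMM. Lhx6 (ENSMUSG00000026890.15, chr2:36081953-36105408, minus strand) had 6.9 TPM from 212 counts in replicate 2 and 1.83 TPM from 79 counts in replicate 1 (4.37 ± 3.59 TPM, SD, n = 2). Its TPM ratio was 3.77 (2.9 to 4.95). Its log2 count ratio was 0.85 with TMM (adjusted p = 5.75e-06, exact binomial test), under the 2-fold threshold, and 1.46 with library totals (adjusted p = 9.12e-16, exact binomial test), above it. The log2 TPM ratio of 1.48 was close to the 1.6 of its GC class, 50% to 55%. Lhx6, at 54.6% GC, lay at the upper end of that class. On counts, with the smooth GC trend removed as given below, Lhx6 stood at -1.15, so the measures place it differently.

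Sox6, an SRY-related factor that acts after Lhx6, had nearly equal counts in the libraries. Sox6 (ENSMUSG00000051910.9, chr7:115470872-116038796, minus strand) had 5.03 TPM from 407 counts in replicate 2 and 3.47 TPM from 394 counts in replicate 1 (4.25 ± 1.10 TPM, SD, n = 2). Its TPM ratio was 1.45 (1.26 to 1.67), its log2 TPM ratio of 0.43 stood beside a class median of 0.41, and it was not called (log2 count ratio -0.53, under 2-fold, adjusted p = 4.68e-07, exact binomial test). Maf, a basic leucine zipper factor of the somatostatin and parvalbumin lineage, was called lower in replicate 2 with TMM and not with library totals. Maf (ENSMUSG00000055435.6, chr8:115682942-115707794, minus strand) had 8.09 TPM in replicate 2 and 9.21 in replicate 1 (8.65 ± 0.792 TPM, SD, n = 2), a ratio of 0.878 (0.775 to 0.995). Its counts were 409 in replicate 2 and 659 in replicate 1, with a log2 count ratio of -1.26 (adjusted p = 6.46e-45, exact binomial test). With library totals the ratio was -0.65, under the 2-fold threshold. Maf, at 50.3% GC, lay at the lower edge of its GC class, 50% to 55%, where 1.98% of genes were called lower and 47.8% higher. In the class below, 45% to 50%, 16.0% were called lower and 3.35% higher.

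Sp8, a zinc finger factor, was the lowest of the 9 genes. Sp8 (ENSMUSG00000048562.6, chr12:118846329-118852576, plus strand) had 0.75 TPM from 35 counts in replicate 2 and 0.7 TPM from 43 counts in replicate 1 (0.725 ± 0.0354 TPM, SD, n = 2). The TPM ratio of 1.07 had a counting interval of 0.666 to 1.71, so a difference in TPM was not detectable at this depth. Its log2 count ratio was -0.87 with TMM (adjusted p = 0.0101, exact binomial test) and -0.26 with library totals, under 2-fold in both, so Sp8 was not called. Its log2 TPM ratio of 0.04 stood beside a class median of 0.41. The 5 olfactory bulb markers summed to 20.02 TPM in replicate 2 and 16.11 in replicate 1. Among them Tbx21, a factor of bulb projection neurons, had 4 counts in replicate 2 and 0 in replicate 1. Dcx, of immature neurons, had 7.24 TPM in replicate 2 and 10.6 in replicate 1 and was called lower. Th, of dopaminergic neurons, had 120 counts in replicate 2, against 1 in replicate 1, and was called higher. In the GC class of Dcx 74.6% of genes were called lower, and in that of Th 90.8% were called higher. Pax6 and Eomes were not called.

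Reln had the highest level and the most counts, with more counts and less TPM in replicate 2 than in replicate 1. Reln (ENSMUSG00000042453.10, chr5:21884454-22344702, minus strand) had 23.0 TPM in replicate 2 and 28.4 in replicate 1 (25.7 ± 3.77 TPM, SD, n = 2), a ratio of 0.812 (0.741 to 0.89). Its counts were 1196 in replicate 2 and 771 in replicate 1. The log2 count ratio was 0.06 with TMM (adjusted p = 0.402, exact binomial test) and 0.67 with library totals, under 2-fold in both, so Reln was not called. Its log2 TPM ratio of -0.29 was close to the -0.31 of its GC class, 40% to 45%. On counts, with the smooth GC trend removed as given below, Reln stood at 1.34, so the measures place it differently. Its effective length was 4792.16 bases in replicate 2 and 1892.75 in replicate 1.

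That length reflects the estimated split between a long coding and a short noncoding transcript of Reln. Reln-207, the coding transcript of 11699 bases in 65 exons, held 1032 counts and 8.27 TPM in replicate 2, and 505.4 counts and 3.05 TPM in replicate 1. Reln-205, a noncoding transcript of 891 bases in 3 exons, held 97.2 counts and 12.7 TPM in replicate 2, and 254.8 counts and 25.0 TPM in replicate 1. Most Reln reads were thus given to the coding transcript in both libraries, while most Reln TPM was given to the short one, 55.3% in replicate 2 and 88.3% in replicate 1. Of the 891 bases of Reln-205, 761 lie in exons of Reln-207, 581 of them in its 3′ untranslated region, and 130 lie outside its exons. Coding transcripts alone gave Reln 8.39 TPM in replicate 2 and 3.05 in replicate 1, a log2 ratio of 1.21 in place of -0.29, a comparison chosen after the values were seen. The GC content of Reln, 42.8%, is weighted by TPM and lies between the 39.8% of Reln-205 and the 51.1% of Reln-207, so the GC class of Reln also depends on this split.

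**Figure D3:**
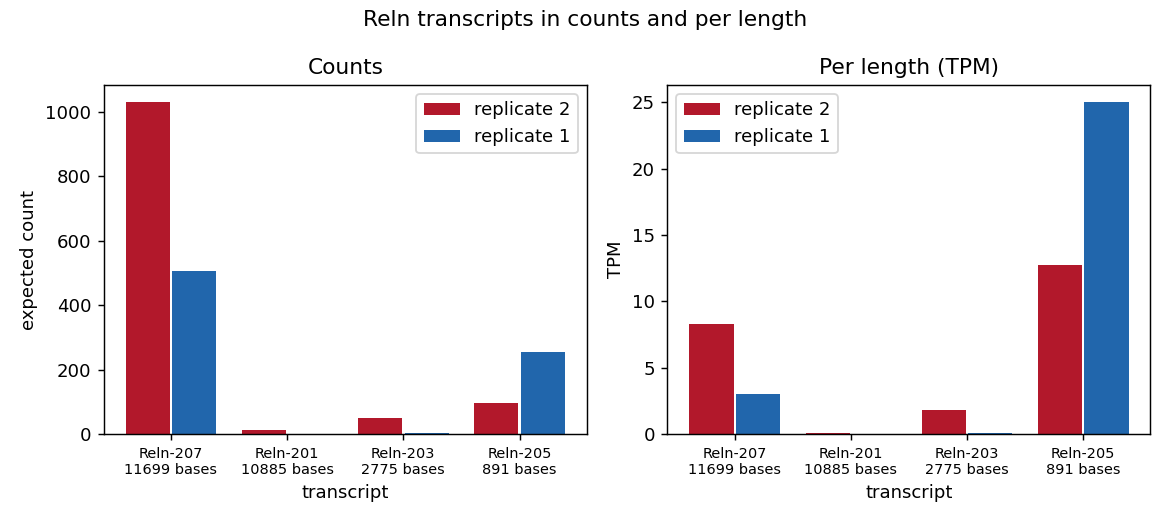
Expected counts (left) and TPM (right) of the 4 Reln transcripts with the most counts in replicate 2 (red) and replicate 1 (blue), with transcript lengths under the names. Reln-207 has the most counts, 1032 in replicate 2 and 505.4 in replicate 1, and Reln-205 the highest TPM, 12.7 in replicate 2 and 25.0 in replicate 1.

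The sequences that tell these transcripts apart lie at the last exons of Reln. Reln-207 carries a 6-base exon (exon 64 of 65, chr5:21891562-21891567, minus strand), in capitals below between 40 bases of each neighbouring exon. Reln-201, a coding transcript of 64 exons, lacks it, and its junction is shown for comparison. The middle exon of Reln-205 (chr5:21891562-21891697, 136 bases) ends in the same 6 bases, in capitals, and the bases before them are those outside the exons of Reln-207.
Reln-207: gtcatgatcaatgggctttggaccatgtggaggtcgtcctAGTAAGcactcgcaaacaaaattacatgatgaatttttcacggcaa
Reln-201: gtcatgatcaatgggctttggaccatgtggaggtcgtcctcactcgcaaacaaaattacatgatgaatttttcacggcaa
Reln-205: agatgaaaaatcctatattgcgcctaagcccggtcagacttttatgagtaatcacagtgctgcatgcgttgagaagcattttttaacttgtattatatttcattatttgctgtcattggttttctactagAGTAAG
Reln-201, the form without the 6-base exon, held 13.7 counts in replicate 2 and 0 in replicate 1, so nearly all coding Reln counts went to the form with it. Reln-201 also has a shorter 3′ untranslated region, of 226 bases against 1022 in Reln-207, so exon choice and that end cannot be told apart in these estimates.

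Over the 9 genes, 43 transcripts were listed, of which 25 were above 0 TPM in replicate 2 and 17 in replicate 1. The leading transcript was the same in both libraries for 6 genes and differed for Dlx1, Dlx5 and Dlx6. For Dlx1 the leading transcript was Dlx1-201 in replicate 2, with 85.0% of Dlx1 TPM and 233.4 counts, against 0% and 0 counts in replicate 1, where the deposited upper bound was 0.38 TPM. Dlx1-203, with a retained intron and 1108 bases outside the exons of Dlx1-201, held 15.03% and 33.6 counts in replicate 2 and 77.2% and 197 counts in replicate 1. Since Dlx1-201 is the only Dlx1 transcript annotated to code for the whole homeobox printed above, coding transcripts that hold it had 5.49 TPM in replicate 2 and 0 in replicate 1. Noncoding transcripts such as Dlx1-203 were not searched for its bases, so this is no statement that they lack them. The deposited posterior means, a second estimate, gave Dlx1-201 60.4% in replicate 2 and 2.29% in replicate 1.

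For Dlx5 the leading transcript was Dlx5-201, which holds the homeobox, in replicate 2 (89.4%, 52.3 counts), and Dlx5-202, which does not hold it whole, in replicate 1 (100%, 14 counts). With 14 counts the posterior means gave Dlx5-201 83.3% in replicate 2 and still 34.7% in replicate 1. For Dlx6 both leading transcripts hold the homeobox. Dlx6-201, of 605 bases, had 55.5% of Dlx6 TPM in replicate 2 and 9.15% in replicate 1, and Dlx6-202, of 2216 bases, had 28.1% in replicate 2 and 90.9% in replicate 1. In counts Dlx6-202 was ahead in both libraries, with 77.0 in replicate 2 and 117.5 in replicate 1. Lhx6-204 led Lhx6 with 71.0% in replicate 2 and 100% in replicate 1, and Sox6-204 led Sox6 with 66.1% in replicate 2 and 100% in replicate 1. The posterior means gave lower shares, 44.3% in replicate 2 and 33.5% in replicate 1 for Lhx6-204, and 61.1% in replicate 2 and 74.0% in replicate 1 for Sox6-204. In replicate 1 the deposited upper bound for Lhx6-204, 1.31 TPM, lay below its TPM of 1.83, so its share there is uncertain. Maf was split between Maf-202, of 1 exon (51.9% in replicate 2 and 61.8% in replicate 1), and Maf-201, of 3 exons. Transcript shares are estimates, and no test was made of them.

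**Figure D4:**
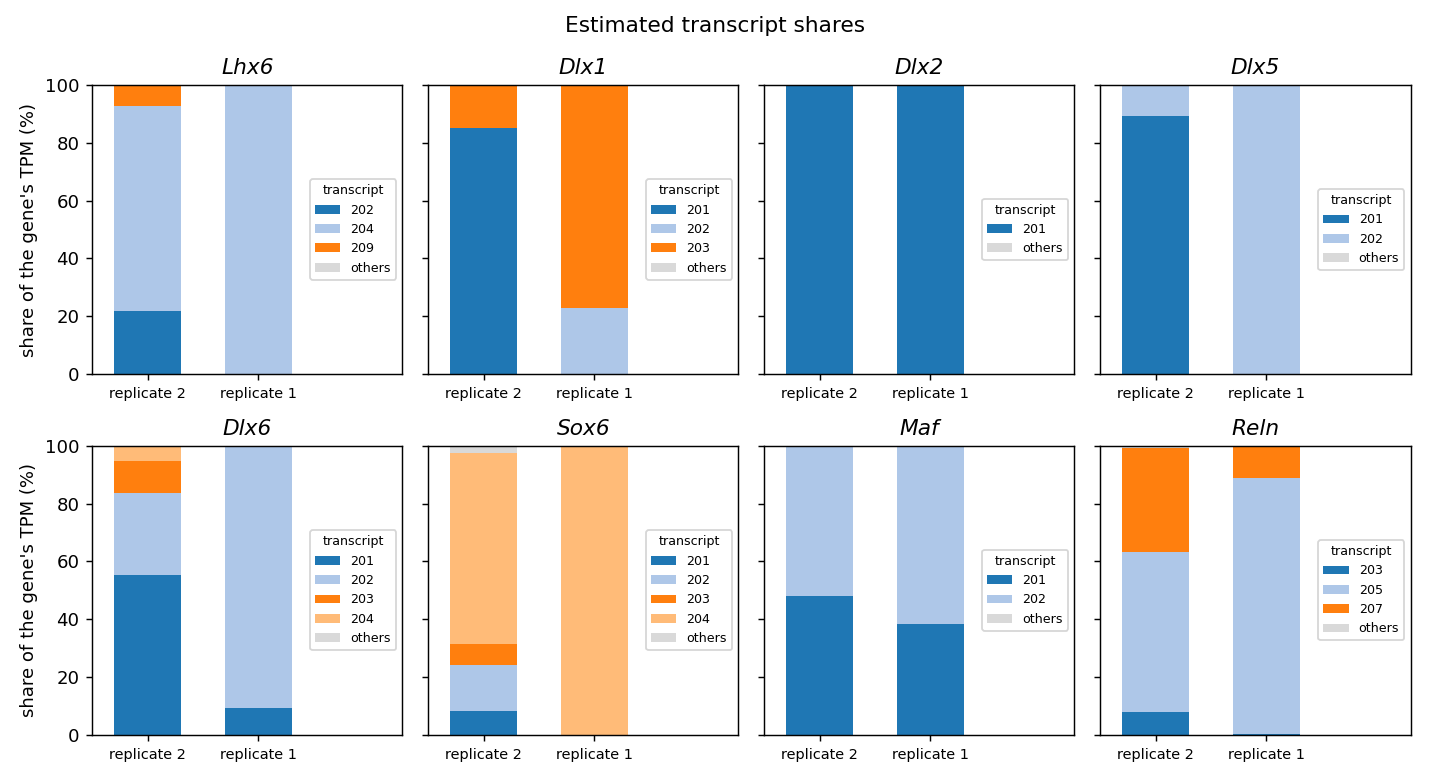
Estimated share of each gene's TPM, in percent, held by each transcript in replicate 2 (left bar) and replicate 1 (right bar), for the 8 genes with 2 or more transcripts. The leading transcript changes for Dlx1, Dlx5 and Dlx6, and Reln-205 takes 55.3% of Reln in replicate 2 and 88.3% in replicate 1.

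Other factors of these lineages were counted in the same way, against 34.5% of all genes called higher, 24.0% lower and a median log2 TPM ratio of 0.88. Of 9 listed factors of the medial eminence lineage 8 were tested: 0 were called higher, 3 lower and 5 not called, with a median log2 TPM ratio of 0.26. With library totals 1 was higher and 0 lower. Zeb2, a repressor needed for cortical fate of these interneurons, had 38.1 TPM in replicate 2 and 36.3 in replicate 1 and was called lower, on 2084 counts in replicate 2 and 3805 in replicate 1. Etv1, an ETS factor, had 33.6 TPM in replicate 2 and 40.6 in replicate 1 and was also called lower. Satb1, a chromatin organiser downstream of Lhx6, had 36.2 TPM in replicate 2 and 25.3 in replicate 1 and was not called. Nkx2-1, which switches on Lhx6, had 11 counts in replicate 2, against 18 in replicate 1, and was the remaining factor called lower (adjusted p = 0.027, exact binomial test). Of the 3 called lower, Etv1 lies in a GC class with 74.6% called lower, Zeb2 in a class with 16.0% and Nkx2-1 in a class with 0.448%.

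Of 14 factors of the caudal and lateral eminence lineages, Etv1 again among them, 12 were tested, 1 was called higher, 5 lower and 6 not called, with a median log2 TPM ratio of 0.11. With library totals 1 was higher and 1 lower. Meis2, a homeodomain factor of striatal and bulb neurons, had 77.8 TPM in replicate 2 and 60.7 in replicate 1. Nr2f1, a nuclear receptor, had 37.2 TPM in replicate 2 and 16.7 in replicate 1, and neither was called. Nr2f2, its relative of the caudal eminence, had 7.69 TPM in replicate 2 and 8.92 in replicate 1 and was called lower, as was Prox1, at 6.58 TPM in replicate 2 and 6.99 in replicate 1. Npas1, a repressor of this lineage, was called higher, with 96 counts in replicate 2 and 0 in replicate 1. It lies in the GC class of 60% to 65%, where 94.3% of genes were called higher. Nr2f2 and Prox1 lie in the class of 45% to 50%, where 16.0% were called lower.

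Of 17 genes of the GABAergic machinery and interneuron subtypes, 8 were called higher, 4 lower and 5 not called, with a median log2 TPM ratio of 1.48. With library totals 10 were higher and 1 lower. Cck, a neuropeptide precursor, had 494.9 TPM in replicate 2 and 34.9 in replicate 1. Slc32a1, the vesicular GABA transporter, had 60.1 TPM in replicate 2 and 2.05 in replicate 1, at a GC content of 61.9%. Pvalb, the calcium buffer parvalbumin, had 165.5 TPM in replicate 2 and 27.9 in replicate 1. Npy, a neuropeptide of the somatostatin lineage, had 222.6 TPM in replicate 2 and 46.65 in replicate 1. Sst and these 4 were called higher, and Gad1, over all its transcripts, was not called. The 4 genes called lower were Gad2, Vip, Ndnf and Erbb4, with log2 count ratios of -1.25, -1.24, -1.32 and -1.78, all in the GC class with a median log2 TPM ratio of -0.31. Subtype genes of the medial lineage, Sst and Pvalb, had log2 TPM ratios of 2.53 each, against 1.48 for Lhx6, 0.43 for Sox6 and -0.17 for Maf in the same libraries. These genes differ in GC class: the class median was 3.03 for Sst, 0.41 for Pvalb and Sox6, and 1.6 for Lhx6 and Maf.

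Of 12 genes of reelin signalling 3 were called higher, 6 lower and 3 not called, with a median log2 TPM ratio of 0.41. With library totals 3 were higher and 0 lower. Of the receptor genes, Vldlr had 21.9 TPM in replicate 2 and 26.3 in replicate 1 and was called lower, and Lrp8 had 23.9 TPM in replicate 2 and 14.4 in replicate 1 and was not called. Dab1, the adaptor that both receptors bind, had 31.9 TPM in replicate 2 and 27.1 in replicate 1, and was called lower, on 1303 counts in replicate 2 and 1776 in replicate 1. The kinase genes for Dab1 differed, with Fyn at 72.2 TPM in replicate 2 and 30.4 in replicate 1, not called, and Src at 38.8 TPM in replicate 2 and 1.21 in replicate 1, called higher. Crk, an adaptor that binds phosphorylated Dab1, had 84.7 TPM in replicate 2 and 109.9 in replicate 1, and Cul5, of the ligase that degrades it, 23.6 TPM in replicate 2 and 43.1 in replicate 1, both called lower. Pafah1b1, which codes for Lis1, had 171.5 TPM in replicate 2 and 417.6 in replicate 1 and was called lower. Genes called lower in this list had a GC content of 40.8% to 46.7%, and those called higher of 56.3% to 59.2%.

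Markers of other cells that make reelin were measured as well. The 5 Cajal-Retzius markers summed to 58.1 TPM in replicate 2 and 20.6 in replicate 1, but most of this was Calb2, an interneuron gene too, at 51.4 TPM in replicate 2 and 16.1 in replicate 1. Of the more defining markers, Trp73 had 25 counts in replicate 2, against 1 in replicate 1, while Lhx5 had 18 counts in replicate 2 and 0 in replicate 1. Both were called higher, as were 90.8% of genes in their GC class, 55% to 60%. Lhx1 had 29 counts in replicate 2, against 21 in replicate 1, and was not called. Ndnf had 159 counts in replicate 2, against 267 in replicate 1. It was called lower, as were 74.6% of genes in its GC class, 40% to 45%. Of the cerebellar granule cell markers, Gabra6 had 2 counts in replicate 2, against 11 in replicate 1. Neurod1 had 6.67 TPM in replicate 2 and 7.74 in replicate 1, and Cbln1 12.5 TPM in replicate 2 and 4.5 in replicate 1. Gabra6, Neurod1, Zic1 and Etv1 were called lower, against 24.0% of all tested genes, and Cbln1 was not called. Gabra6, Neurod1 and Etv1 also lie in the GC class of 40% to 45%, and Zic1 in that of 45% to 50%, where 16.0% were called lower. With library totals only Gabra6 was called lower, and Cbln1 was called higher. The list of 5 summed to 68.5 TPM in replicate 2 and 66.2 in replicate 1, and Zic1 and Etv1, which other brain cells express as well, made up most of it.

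Counts were last set beside those of genes of like GC content. With the smooth trend of the log2 count ratio on GC content removed, Lhx6 stood at -1.15, Dlx1 at -1.92, Dlx2 at -2.66 and Maf at -1.53, each at least 2-fold below genes of like GC content, as were 11.2% of the 16263 genes with a GC value. Dlx5 stood at -0.65, Dlx6 at -1.0, just inside 2-fold, Sp8 at -0.92 and Sox6 at 0.21. Reln stood at 1.34, at least 2-fold above genes of like GC content, as were 13.7% of all these genes, with the GC content of Reln set mostly by the short transcript.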

How the data were processed

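Brain poly(A) RNA was measured in 2 libraries of 1 mouse. Expected counts, TPM, FPKM and the percent of a gene's TPM per transcript were deposited by the authors, with posterior means and TPM intervals beside them, per the file headers. The deposited listings name mm10 and GENCODE M4; aligner and quantifier: not given in the sources used here. Rows other than genes (1 count in replicate 2, 0 in replicate 1) were left out. Symbols, positions and sequences came from GENCODE M21 (GRCm38), matched by identifier: 42462 of 43346 genes had a symbol, and 97.95% of transcripts a sequence.

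Expected counts were rounded, and genes whose counts summed to 10 or more were compared by a two-sided exact binomial test with TMM sizes (edgeR 4.0.16, R 4.3.3), and folds were taken after adding 0.5 to both counts. TMM over all genes was run first and restricted to the tested genes after results were seen; the calls of the 9 genes were the same. The tests of edgeR and DESeq2 could not be fitted, since each side is 1 library. The p-values and the exact Clopper-Pearson intervals (95%) cover counting error only. A count of 0 was read as allowing up to 3 counts, a set value and not an end of those intervals. Log2 TPM ratios used a pseudocount of 1, which understates low genes. GC content is weighted by TPM, and its trend is a lowess fit (fraction 0.2, statsmodels 0.14.6). Python 3.11.15 and scipy 1.17.1 ran the tests, which were checked on simulated counts. The simulation held counting error only, used library totals, and left out the library difference that went with GC content. It therefore checks the code and not the calls made here.

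The 9 genes and the lists were chosen with earlier results of these data known. Named are the 9 genes, the 3 of highest mean TPM of each list, up to 3 others called, and antisense neighbours; other genes, the transcript comparisons and the sequences were chosen after their values were seen. Alternatives were library totals, DESeq2 (1.42.0) size factors, no count filter, no fold threshold, posterior means, GC trend removal, a pseudocount of 0.1, FPKM and TMM-scaled CPM, and, added after seeing the data, coding transcripts only and TMM over all genes.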

Additional observations from a re-analysis of the deposited data

How the results depend on the processing

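The 2 genes called higher (Dlx2 and Dlx5) remained 2 with DESeq2 size factors, no count filter, posterior mean counts and TMM over all genes, and became 3 with library totals or without the fold threshold (with Lhx6; 43.6% of all genes in each) and 3 with coding transcripts only (with Dlx1; 38.2% of all genes). With the GC trend removed the count was 1 (Reln; 13.7% of all genes). The 1 gene called lower (Maf) became 0 with library totals (7.9% of all genes), 4 without the fold threshold (Dlx6, Sox6, Maf and Sp8; 39.2% of all genes) and 4 with the GC trend removed (Lhx6, Dlx1, Dlx2 and Maf; 11.2% of all genes), and was 1 under the other alternatives. GC trend removal was read at 2-fold with no test. Log2 ratios turned sign for Dlx1 with FPKM (-0.12) and TMM-scaled CPM (-0.2), for Sp8 with both (-0.09 and -0.59), for Dlx6 (-0.47), Sox6 (-0.5) and Reln (0.06) with CPM, which is not divided by length, and for Reln with coding transcripts only (1.21). A pseudocount of 0.1 and posterior mean TPM turned none of the 9. The leading transcript of each gene in each library was the same with posterior means. Depth limits Dlx2, Dlx5 and Sp8 most, with 14 to 58 counts in a library. No paired analysis was possible because each side is 1 library.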
